A study of Mus musculus with 6 samples.

Results

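Ribosome biogenesis factors are the proteins that make ribosomes and are not part of the finished particle. The set described here is 44 genes of 19928 in the deposited table, chosen by symbol: RNA polymerase I subunits, proteins of small nucleolar ribonucleoproteins (snoRNPs), nucleolar chaperones, assembly factors of the small and the large subunit, and the transcription factor Myc. It was drawn up because Heatr1 and Pwp2 were known to lie lower in fat tissue of mice fed radix Angelica sinensis (RAS), so the comparison between the groups describes the members and gives no test of them. The libraries are adipose tissue RNA of KM mice, 3 of a control group and 3 of a group that received RAS, a root used in Chinese medicine, at 10.00 g/kg BW. Both groups belong to a study of mice on high-fat feed by its title, while the only diet named for the control samples is "control". Neither depot, sex nor age is stated, nor whether each sample is 1 animal or pooled ones. Any p-value therefore measures the spread between these samples, which may be technical.

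Ribosomes are built in the nucleolus. RNA polymerase I copies a long precursor RNA, snoRNPs modify it and guide its cleavage, and a large complex called the small subunit processome folds and cuts the part that becomes the small subunit, while a separate set of factors matures the large subunit. The work uses much of a growing cell's energy, and Myc is known to raise the transcription of many of these genes. Fat cells are mature cells that seldom divide, and the tissue also holds vessel, connective tissue and immune cells whose factors enter the same RNA. Fewer cells of a type and less RNA per cell cannot be told apart in such bulk samples.

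Means with RAS were lower for 41 of the 44 members, beside 57% of all genes tested, and higher for Polr1c, Ncl and Npm1, of which Npm1 turned lower and Noc4l higher under quantile normalization and Polr1c lower once a trend with transcript length was removed. For 25 members every RAS library lay below every control library, and for none did every RAS library lie above. Among all 12606 genes with a mean of at least 1 FPKM (fragment counts divided by transcript length and by library total), the groups were apart in this way with RAS lower for 12.5% and with RAS higher for 5.42%. The median difference was -0.30 over the members and -0.04 over all genes tested, on the log2(FPKM + 1) scale that understates the change of low genes, RAS minus control. All 44 members passed the minimum of 1 FPKM. These values come from the contrast by which Heatr1 and Pwp2 were picked, and without these 2 genes the groups were apart for 23 of 42.

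No gene of the table passed limma's moderated test after Benjamini-Hochberg adjustment: 0 of 12606 (0%) had an adjusted p under 0.05, members included. The unadjusted p was under 0.05 for 1294 genes (10.3%), 808 of them lower with RAS (6.41%) and 486 higher (3.86%). This split depended on the scaling, with 623 lower and 684 higher under median-ratio size factors, 660 and 650 under quantile normalization, and 667 and 636 on the deposited scaled counts, where 0 genes passed as well. Differences below are therefore given as values in each library, with no claim that a gene changed. Among the members, 24 lay on the lower side at that level and 0 on the higher.

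Libraries held about 14.4 to 15.7 M reads assigned to genes, as estimated from the unit of their scaled counts, and 12462 to 12641 genes at 1 FPKM or more. The member with the lowest count was Gar1, at 75.3 scaled counts in its lowest library. Between libraries, log2 values correlated at 0.955 (control 1 with RAS 3) to 0.980 (RAS 1 with RAS 2). Control 1 had the lowest mesothelium and the highest skeletal muscle and cell division levels.

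**Figure D1:**
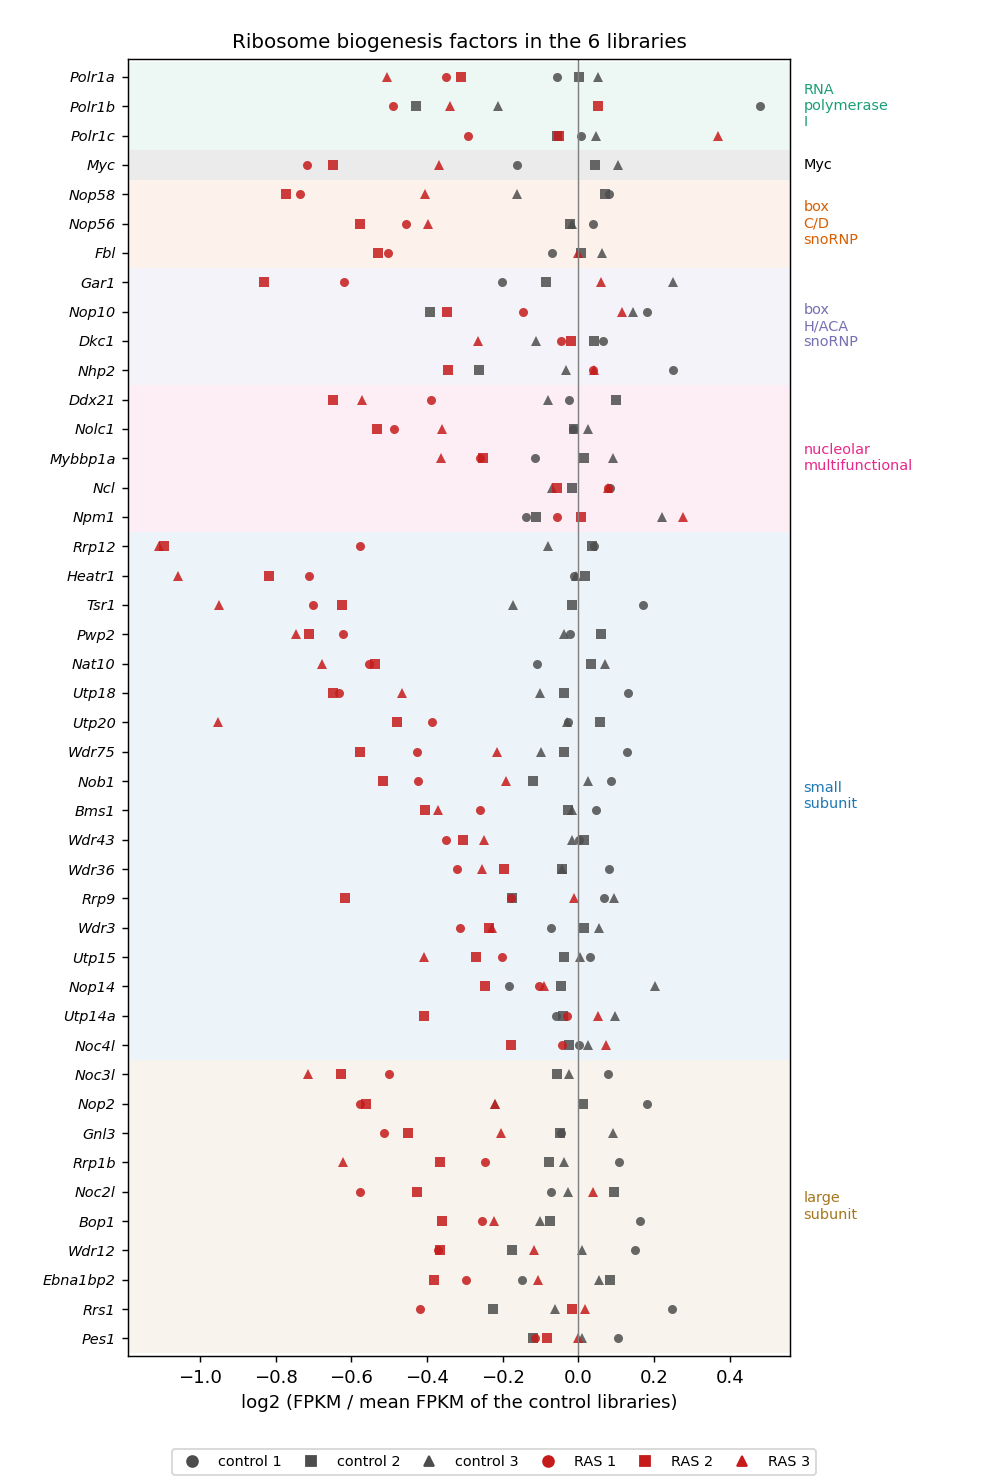
Each row is 1 member, grouped by step of ribosome assembly; points are the 6 libraries (grey control, red RAS), and the horizontal axis is log2 of the FPKM over the mean FPKM of the control libraries. Red points lie left of all grey points for 25 of the 44 members, most of them small subunit factors, while Ncl, Npm1 and the box H/ACA proteins show mixed points.

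Heatr1 and Pwp2, which prompted the choice, are scaffold proteins of the small subunit processome in its UTP-A and UTP-B modules, which bind the start of the precursor RNA. Heatr1 (NCBI gene 217995; chromosome 13, 12395374 to 12438893) was at 4.44, 4.53 and 4.46 FPKM in controls 1, 2 and 3 and at 2.73, 2.54 and 2.15 in RAS 1, 2 and 3. The mean was 4.48 ± 0.048 for controls (SD, n = 3) against 2.48 ± 0.297 for RAS (SD, n = 3), and the log2 values differed by -0.66 ± 0.11 (SE). Every RAS library lay below every control library, and the controls differed among themselves by less than the RAS libraries did. Pwp2 (NCBI gene 110816; chromosome 10, 78170909 to 78185149) was at 5.09, 5.39 and 5.03 FPKM in controls 1, 2 and 3 and at 3.36, 3.15 and 3.08 in RAS 1, 2 and 3. Its log2 difference was -0.56 ± 0.10 (SE), and again the groups did not overlap. The table names no build for these loci, and both overlap the RefSeq GRCm38.p6 gene of the same number. Both are low-abundance transcripts, ranked 40 and 37 by mean FPKM among the 44, with 298 to 629 (Heatr1) and 199 to 360 (Pwp2) scaled counts per library.

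The other UTP-A proteins showed the same order with smaller differences. Utp15, a WD-repeat protein of the module, was at 3.55, 3.38 and 3.48 in control and 3.01, 2.88 and 2.61 with RAS, log2 -0.22. Wdr43 was at 8.55, 8.64 and 8.44 in control and 6.70, 6.91 and 7.18 with RAS, log2 -0.27. Wdr75 was at 9.98, 8.89 and 8.52 in control and 6.79, 6.11 and 7.87 with RAS, log2 -0.36. The groups were apart for each of the 3, beside 12.5% of all genes tested. Utp4 and Nol11, the remaining proteins of UTP-A, are not members; Nol11 stood at log2 -0.35 with the groups apart, and Utp4 (listed as Cirh1a) at -0.10 with RAS 3 at 16.2 FPKM, above every control library.

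In UTP-B, Utp18 was at 7.79, 6.93 and 6.63 FPKM in controls 1, 2 and 3 and at 4.59, 4.53 and 5.15 in RAS 1, 2 and 3, and its log2 values differed by -0.49 ± 0.11 (SE). Wdr36, a WD-repeat protein like Pwp2 and the small subunit member of highest mean level, was at 12.8, 11.7 and 11.8 in control and 9.69, 10.6 and 10.1 with RAS, log2 -0.23. Wdr3, of the same kind, was at 7.24, 7.70 and 7.91 in control and 6.13, 6.46 and 6.50 with RAS, log2 -0.23. The groups were apart for Utp18, Wdr36 and Wdr3, beside 12.5% of all genes tested, and for Pwp2, which prompted the choice. Of the module's remaining proteins, Utp6 stood at -0.29 with the groups apart and Tbl3 at -0.07 with the groups overlapping. Wdr3 and Wdr36 share their locus in the table with other genes, as 15 of the 44 members do, and their reads may be mixed with those of the neighbours.

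Of the 3 factors that act late on the small subunit precursor, Rrp12 and Tsr1 were among the 3 members with the most negative differences, with Heatr1. Rrp12, which takes part in the maturation and nuclear export of the precursor, had the most negative difference of all 44 members, log2 -0.70 ± 0.14 (SE). It was at 4.48, 4.46 and 4.11 FPKM in controls 1, 2 and 3 and at 2.91, 2.04 and 2.02 in RAS 1, 2 and 3. RAS 2 and RAS 3 were nearly equal and RAS 1 lay between them and the controls. Tsr1, a factor related to translation GTPases that guards the late precursor, was at 9.25, 8.12 and 7.29 FPKM in controls 1, 2 and 3 and at 5.05, 5.33 and 4.25 in RAS 1, 2 and 3, log2 -0.65 ± 0.13 (SE); it shares its locus with Srr. Nob1, the endonuclease that makes the last cut in the small subunit RNA, was at 9.19, 7.98 and 8.82 in control and 6.45, 6.06 and 7.59 with RAS, log2 -0.33. The groups were apart for each of these 3, beside 12.5% of all genes tested.

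Among the remaining processome factors the members were divided. Nat10, the acetyltransferase of small subunit RNA, was at 6.90, 7.62 and 7.82 in control and 5.07, 5.12 and 4.66 with RAS, log2 -0.50 ± 0.10 (SE). Utp20, a very long scaffold protein, was at 3.51, 3.73 and 3.50 in control and 2.74, 2.57 and 1.85 with RAS, log2 -0.45, with RAS 3 lowest. Bms1, a GTPase of the processome, was at 10.5, 9.93 and 10.0 in control and 8.46, 7.65 and 7.84 with RAS, log2 -0.31. In these 3 the groups were apart. They overlapped in the other 4: Rrp9, which binds the snoRNA of the processome (log2 -0.23), Nop14 (-0.12) and its partner Noc4l (-0.04), and Utp14a (-0.10), which activates a helicase. Noc4l was at 5.11, 5.03 and 5.20 in control and 4.96, 4.52 and 5.38 with RAS, so RAS 3 was its highest library. Utp14a was at 3.54, 3.58 and 3.94 in control and 3.61, 2.78 and 3.82 with RAS. Over all 18 small subunit members the median was -0.32, means were lower for 18, and the groups were apart for 14, beside 12.5% of all genes tested. Without Heatr1 and Pwp2, which prompted the choice, the median was -0.29 and the groups were apart for 12 of 16.

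**Figure D2:**
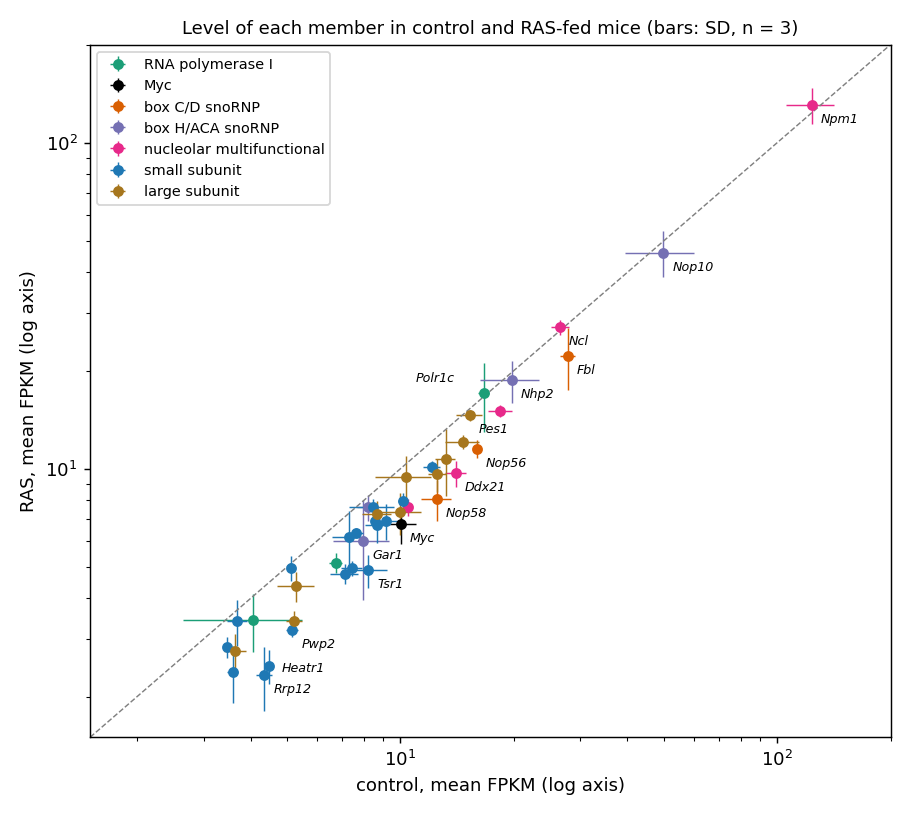
Mean FPKM of each member in control (horizontal) and RAS-fed mice (vertical), both on log axes, with SD over 3 libraries; the dashed line marks equal levels. Rrp12, Heatr1 and Tsr1 lie furthest below the line, and Npm1, Nop10 and Ncl, the members of highest mean level, lie near it.

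The box C/D snoRNPs guide methylation of ribosomal RNA, and one of them is needed for its first cleavages. Nop58, one of the paired scaffold proteins, was at 13.2, 13.1 and 11.1 FPKM in controls 1, 2 and 3 and at 7.49, 7.30 and 9.41 in RAS 1, 2 and 3. Its log2 difference was -0.57 ± 0.13 (SE). Nop56, the paralogous scaffold, was at 16.4, 15.7 and 15.8 in control and 11.7, 10.7 and 12.1 with RAS, log2 -0.44 ± 0.10 (SE). The groups were apart with RAS lower for both, beside 12.5% of all genes tested. Fbl, the methyltransferase fibrillarin, was at 26.5, 28.0 and 29.1 in control and 19.6, 19.3 and 27.8 with RAS, log2 -0.33 ± 0.16 (SE). RAS 1 and RAS 2 lay well below the controls, while RAS 3 lay among them, so the groups overlapped. Fbl was the most abundant of the 3 per length in every library, at 2.01 to 2.96 times the level of Nop58.

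The box H/ACA snoRNPs guide pseudouridylation with a core of other proteins. None of their 4 proteins had groups that were apart, beside 12.5% (RAS lower) and 5.42% (RAS higher) of all genes tested. Dkc1, the pseudouridine synthase dyskerin, was at 8.57, 8.42 and 7.58 in control and 7.93, 8.08 and 6.81 with RAS, log2 -0.10. Nop10, the smallest core protein, was at 56.5, 37.9 and 55.1 in control and 45.0, 39.2 and 53.9 with RAS, log2 -0.10. Nhp2 was at 23.5, 16.5 and 19.3 in control and 20.3, 15.5 and 20.3 with RAS, log2 -0.07. For these 3 the difference was smaller than its SE, and control 2 was the lowest control library of Nop10 and Nhp2. Gar1 was at 6.92, 7.50 and 9.47 in control and 5.18, 4.47 and 8.30 with RAS, log2 -0.39 ± 0.21 (SE), with RAS 1 and RAS 2 below all controls and RAS 3 among them. The median of the H/ACA proteins was -0.10, beside -0.44 for the box C/D proteins; the difference between the 2 sets was not tested.

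RNA polymerase I was represented by 3 subunits. Polr1a, the largest and catalytic one, was at 6.47, 6.74 and 6.97 FPKM in controls 1, 2 and 3 and at 5.28, 5.42 and 4.74 in RAS 1, 2 and 3. Its log2 difference was -0.33 ± 0.10 (SE), and the groups did not overlap. Polr1b, its large partner in the active site, was at 5.66, 3.01 and 3.50 in control and 2.89, 4.21 and 3.21 with RAS, log2 -0.17; control 1 was its highest library and controls 2 and 3 lay among the RAS libraries. Polr1c, which is shared with RNA polymerase III, was at 16.7, 16.0 and 17.2 in control and 13.6, 16.0 and 21.5 with RAS, log2 0.01, with RAS 3 highest and RAS 1 lowest of all 6.

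Myc, the transcription factor, was at 8.96, 10.3 and 10.8 FPKM in controls 1, 2 and 3 and at 6.10, 6.39 and 7.77 in RAS 1, 2 and 3. Its log2 values differed by -0.51 ± 0.13 (SE), with the groups apart. RAS 3 lay closest to the controls.

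Of 5 multifunctional nucleolar proteins, Npm1 and Ncl had overlapping groups. Npm1, the chaperone nucleophosmin and the most abundant member, was at 112, 114 and 144 FPKM in controls 1, 2 and 3 and at 119, 124 and 149.6 in RAS 1, 2 and 3. Control 3 and RAS 3 were the high libraries, and the log2 difference was 0.08 ± 0.16 (SE). Npm1 has processed pseudogenes that may share its reads, so its level is uncertain. Ncl, the RNA-binding protein nucleolin, was at 28.1, 26.2 and 25.3 in control and 28.0, 25.5 and 28.0 with RAS, log2 0.03; its 6 libraries lay within 25.3 to 28.1 FPKM. The other 3 had lower values in every RAS library than in every control library, beside 12.5% of all genes tested. Ddx21, an RNA helicase of the nucleolus, was at 13.8, 15.0 and 13.2 in control and 10.7, 8.94 and 9.41 with RAS, log2 -0.49 ± 0.11 (SE). Nolc1, a phosphoprotein that binds snoRNPs, was at 10.4, 10.4 and 10.6 in control and 7.46, 7.24 and 8.15 with RAS, log2 -0.41 ± 0.10 (SE). Mybbp1a, which takes part in rRNA gene transcription, was at 17.0, 18.6 and 19.6 in control and 15.4, 15.5 and 14.3 with RAS, log2 -0.27. Npm1 stood at 25.2 to 32.3 times the FPKM of Heatr1 in the controls and at 43.4 to 69.5 times in the RAS libraries. Heatr1 prompted the choice by its lower values with RAS, so this ratio restates them.

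For the large subunit, means were lower for 10 of 10 members (median -0.27), beside 57% of all genes tested. The groups were apart with RAS lower for 4, beside 12.5% of all genes tested. Noc3l, which moves with early large subunit precursors, was at 5.50, 5.01 and 5.13 in control and 3.69, 3.38 and 3.17 with RAS, log2 -0.49 ± 0.10 (SE). Gnl3, the GTPase nucleostemin, was at 12.1, 12.1 and 13.3 in control and 8.77, 9.17 and 10.9 with RAS, log2 -0.36. Rrp1b was at 3.93, 3.46 and 3.55 in control and 3.07, 2.83 and 2.37 with RAS, log2 -0.31. Bop1 completed the 4, at log2 -0.26. Nop2, a methyltransferase of large subunit RNA, was at 11.3, 10.1 and 8.57 in control and 6.70, 6.77 and 8.57 with RAS, log2 -0.40 ± 0.14 (SE), where RAS 3 and control 3 met. Overlap was also seen for Noc2l (log2 -0.29), Ebna1bp2 (-0.23) and Rrs1. The last was at 12.2, 8.82 and 9.89 in control and 7.72, 10.2 and 10.4 with RAS, log2 -0.11, with control 1 highest.

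Bop1, Pes1 and Wdr12 form the PeBoW complex of large subunit maturation. Pes1, its most abundant component and the most abundant large subunit member, was at 16.4, 14.0 and 15.4 in control and 14.1, 14.4 and 15.2 with RAS, log2 -0.06, with overlapping groups. Wdr12 was at 5.87, 4.68 and 5.33 in control and 4.09, 4.11 and 4.88 with RAS, log2 -0.23, also overlapping. Pes1 was at 2.80 to 3.00 times the FPKM of Wdr12 in the controls and at 3.12 to 3.51 times in the RAS libraries.

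**Figure D3:**
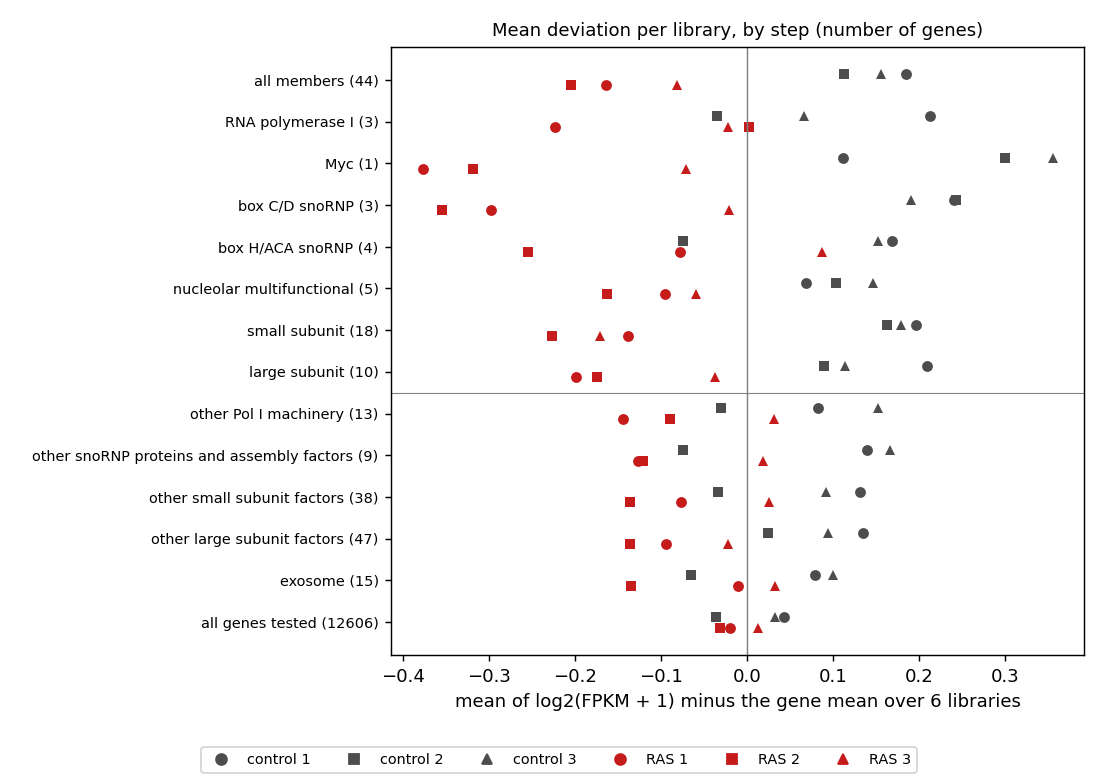
For each step (above the line) and each list of other assembly genes (below it), the mean over its genes of log2(FPKM + 1) minus the gene's mean over the 6 libraries; grey control, red RAS, number of genes in brackets. The small subunit lies at 0.16 to 0.20 in control and -0.23 to -0.14 with RAS, while the groups overlap in the lists below the line apart from the other large subunit factors.

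The mean deviation of the 44 members from each gene's mean was 0.18, 0.11 and 0.15 in controls 1, 2 and 3 and -0.16, -0.21 and -0.08 in RAS 1, 2 and 3. All controls lay above all RAS libraries. For the 18 small subunit members the values were 0.20, 0.16 and 0.18 in controls 1, 2 and 3 and -0.14, -0.23 and -0.17 in RAS 1, 2 and 3, and for the box H/ACA proteins they were 0.17, -0.07 and 0.15 in controls 1, 2 and 3 and -0.08, -0.25 and 0.09 in RAS 1, 2 and 3, where the groups overlapped. Within groups the members varied little: the median coefficient of variation of FPKM was 6.51% in control and 10.9% with RAS, against 13.0% and 14.2% over all genes tested. Summed over the 44 members the level was 565 to 619.8 FPKM in control and 488 to 572 with RAS and overlapped, with Npm1 alone at 112 to 149.6 FPKM per library.

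Other genes of ribosome assembly were listed by function. Of 122 found and tested, 100 had lower and 22 higher means with RAS, beside 57% lower over all genes tested, and the median was -0.13. The groups were apart with RAS lower for 33 (27.0%, beside 12.5% of all genes tested) and higher for 1 (5.42% of all genes). None, 0 of 122, passed limma's adjusted threshold, and 23 had an unadjusted p under 0.05 on the lower side (6.41% of all genes) and 1 on the higher (3.86%). Whether these genes differed from the members was not tested. Among 13 further genes of the polymerase I machinery, 11 had lower means: Tcof1, the treacle protein of rRNA transcription, stood at log2 -0.39, Cd3eap at -0.20, Ubtf, which marks active rRNA genes, at -0.19 and Taf1c at -0.18. All 9 further snoRNP proteins and assembly factors had lower means, with Znhit6 at -0.32, Naf1 at -0.24, Ruvbl2 at -0.30 and Nufip1 at -0.13. The groups were apart with RAS lower for 4 of the 13 and 2 of the 9, beside 12.5% of all genes tested.

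Of 38 further small subunit factors 31 had lower means and 12 had groups apart with RAS lower, beside 57% and 12.5% of all genes tested. Those with the smallest p were Wdr46 at 8.02, 6.87 and 7.90 in control and 5.76, 3.76 and 4.99 with RAS (log2 -0.57), Pdcd11 (-0.31), Nol10 (-0.35) and Bysl (-0.39). Rcl1 was the gene with every RAS library above every control library (log2 0.27). Of 47 further large subunit factors 40 had lower means and 14 had groups apart with RAS lower, beside 57% and 12.5% of all genes tested. Rpf2, which helps to install a small ribosomal RNA in the large subunit, was at 7.57, 6.71 and 7.22 in control and 5.12, 4.70 and 4.79 with RAS (log2 -0.48), followed by Pelp1 (-0.41), Rrp15 (-0.38) and Ppan (-0.39). The exosome trims precursor RNA. Of its 15 genes 9 had lower and 6 higher means (median -0.08), beside 57% lower over all genes tested. The groups were apart with RAS lower for 1 of 15 (6.67%, beside 12.5% of all genes tested). Those with the smallest p were Dis3, the exosome's catalytic exonuclease, at -0.39, Exosc2 at -0.21, Exosc6 at -0.25 and Exosc1 at -0.25.

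RAS 3 differed from the other libraries by transcript length, and this touches the members. Scaled counts per FPKM are higher for longer transcripts, since FPKM are divided by length, and ranged from 7.18 for Nop10 to 197 for Utp20. Ncl stood at 195, above Heatr1 at 139, although nucleolin has the shorter coding sequence, so for Ncl the measure does not follow length. Across the 44 members, log2 of this measure and the deviation of a library from the gene means correlated with r = -0.70 in RAS 3, 0.49 in control 2 and -0.03 to 0.24 in the other 4 libraries; across all 12606 genes the values were -0.45 in RAS 3 and 0.25 in control 2. These are correlations across genes of shared libraries and are given as a description. RAS 3 was the highest of the RAS libraries for 28 members and the lowest for 12, among which were the long transcripts Heatr1, Utp20 and Polr1a.

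Among the 22 shorter members (up to 58.6 scaled counts per FPKM) the median was -0.27 and the groups were apart for 9, and among the 22 longer ones the median was -0.31 and they were apart for 16. Over all tested genes split at the same length, the medians were 0.00 and -0.09, and RAS was lower throughout for 8.62% and 18.9%. The medians of the 2 sets of members changed order without RAS 3, at -0.37 for the shorter and -0.29 for the longer ones. They also did so after the length trend was taken out of each library, at -0.25 and -0.22. The counts kept their order with the trend taken out, with groups apart for 11 shorter and 15 longer members. Without RAS 3 the median over the 44 members was -0.30 and 43 had lower means. With 1 other library left out instead, 37 (without RAS 2) to 42 (without control 2) had lower means. With the trend taken out, the median over the 44 was -0.23 and the groups were apart for 26 of 44, with 9.94% of all genes apart in that direction.

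**Figure D4:**
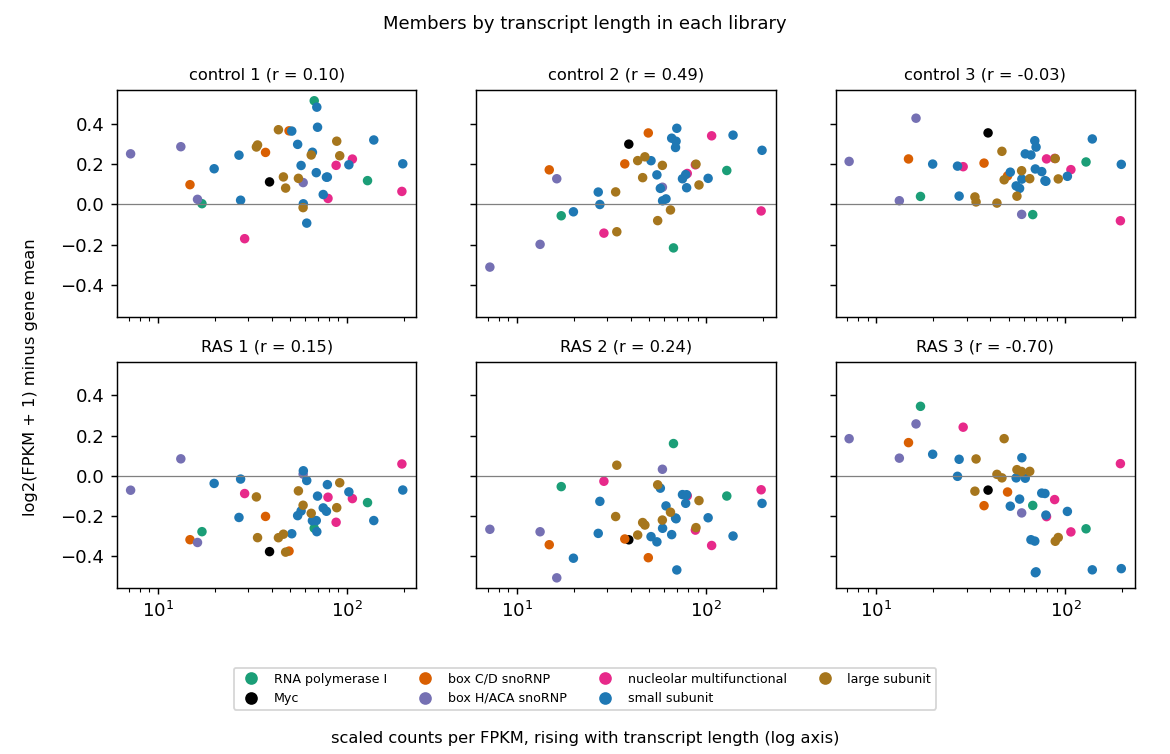
One panel per library: each point is 1 of the 44 members, placed by scaled counts per FPKM (log axis, rising with transcript length) and by log2(FPKM + 1) minus the gene mean over the 6 libraries. Heatr1, Utp20, Tsr1 and Rrp12, all among the longer transcripts, lie low in RAS 3 (r = -0.70 across members), and in the other libraries r lies between -0.03 and 0.49.

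Promoters of the members were searched for CACGTG, the E-box letters that Myc and related factors can bind, because Myc is among the members. RefSeq windows (GRCm38.p6, 250 bases before to 50 after a start) were found for 37 of the 44 members, all but Bop1, Fbl, Myc, Npm1, Rrp12, Rrs1 and Wdr36, and 7 of these 37 (18.9%) held CACGTG, which reads the same on both strands. Of 8637 tested genes with a window, 11.9% held it, and of all 27025 genes 8.09% did. The letters CACGCG, searched on both strands which cannot overlap CACGTG, stood in windows of 10 members (27.0%), of 19.9% of tested genes and of 10.5% of all genes. GC boxes (GGGCGG on either strand) stood in windows of 27 members (73.0%) and of 69.0% of tested genes. The E-box letters are shown in capitals with the bases around them, 5′ to 3′ on the gene's strand, for all 7 members, so that their flanks can be compared.
Utp18: gagcgccggtCACGTGgcttgcggcg
Nop2: gtccctggatCACGTGtgttccggtg
Pes1: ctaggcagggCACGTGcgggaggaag
Wdr43: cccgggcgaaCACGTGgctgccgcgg
Tsr1: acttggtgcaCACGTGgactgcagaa
Utp20: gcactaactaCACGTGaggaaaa
Mybbp1a: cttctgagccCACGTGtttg
These windows are chr11:93885771-93885796 on the minus strand, chr6:125131813-125131838 on the plus strand, chr11:3963967-3963992 on the plus strand, chr17:71616222-71616247 on the plus strand, chr11:74898094-74898119 on the plus strand, chr10:88826765-88826787 on the minus strand and chr11:72441357-72441376 on the plus strand. In Utp18 and Nop2 the E-box began 20 and 60 bases before the start, and in Pes1, Wdr43, Tsr1, Utp20 and Mybbp1a it began 2, 17, 24, 37 and 40 bases after it, counted from the RefSeq start. The deposited loci can begin elsewhere: that of Mybbp1a begins at 72441377, past the letters shown. The groups were apart with RAS lower for 5 of these 7 members, the exceptions being Nop2 and Pes1, and for 16 of the 30 members whose windows lacked the letters, Heatr1 and Pwp2 among them; of all genes tested, with or without the letters, 12.5% were apart in this direction. A match says only that the letters are there, and no binding was measured.

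Marker genes were read beside these values for the label and for other cells. None of 8 fat cell markers was listed at 0, and 6 had higher and 2 lower means with RAS, beside 57% lower over all genes tested. For 3 of the 8, Cidec, Fabp4 and Lipe, every RAS library lay above every control library, beside 5.42% of all genes tested. For 1, Lep, every RAS library lay below, beside 12.5%. The sum of the 8 was 27763 to 34520.3 FPKM in control and 38068 to 54569.6 with RAS. Most of it came from Fabp4, the fatty acid carrier of fat cells. Without Fabp4 the sums overlapped, at 6892 to 8073 FPKM in control and 7905 to 8984 with RAS. Adipoq, the hormone adiponectin, was at 2379, 2357 and 2419 in control and 2399, 2585 and 3459.6 with RAS. Lep, the hormone leptin, was at 615, 448 and 424 in control and 334, 293 and 320.0 with RAS (log2 -0.63, groups apart), and Plin1, a coat protein of lipid droplets, was the other marker with a lower mean, at log2 -0.16 with overlapping groups. Cell division genes had lower means for 5 of 6 tested, beside 57% of all genes tested. The groups were apart with RAS lower for 1 of these 6, beside 12.5% of all genes tested. The sum of the listed genes was 39.9 to 55.7 FPKM in control and 38.8 to 40.4 with RAS. Most of it came from Pcna, at a mean of 32.6 FPKM. Mki67, the proliferation antigen, was at 3.17, 0.691 and 1.05 in control and 1.33, 1.10 and 0.544 with RAS. The high library there was control 1. Without control 1 the median of the 44 members was -0.29, and the part of cell division in the members' values was not tested. Summed fibroblast and progenitor markers were at 1221 to 1843 FPKM in control and 1059 to 1455 with RAS, macrophage markers at 349 to 559 FPKM in control and 428 to 568 with RAS, endothelial markers at 195 to 246 FPKM in control and 193 to 234 with RAS and lymphocyte markers at 5.02 to 10.7 FPKM in control and 5.61 to 10.2 with RAS, all overlapping between groups. Brown fat markers were at 17.6 to 146 FPKM in control and 85.7 to 569.6 with RAS, highest in RAS 3. All 4 tested had higher means with RAS, beside 5416 of 12606 genes tested. Ucp1, 1 of these 4, was at 33.8, 13.9 and 0.034 in control and 4.90, 4.48 and 163 with RAS. Its groups overlapped, and RAS 1 and RAS 2 lay below controls 1 and 2. For 2 of the 4, Cidea and Elovl3, every RAS library lay above every control library, beside 5.42% of all genes tested. Elovl3 was under 1 FPKM in every library but RAS 3. Skeletal muscle markers were at 68.9 to 199.9 FPKM in control and 22.4 to 60.7 with RAS, highest in control 1. Acta1, an actin of muscle, made up most of the muscle sum, at 180.0, 134 and 66.8 in control and 21.2, 59.6 and 34.3 with RAS; the other 5 markers summed to 0.971 to 19.9 FPKM in control and 1.14 to 1.23 with RAS, which overlapped, and Myh4 was listed at 0 in at least 1 library. Mesothelium markers were at 27.9 to 233 FPKM in control and 90.6 to 146 with RAS, lowest in control 1, and liver markers at 9.69 to 159 FPKM in control and 9.71 to 14.1 with RAS, highest in control 3, with Apoa1, Apoa2 and Ttr listed at 0 in some libraries. The part of these cell types in the members' values was not tested.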

How the data were processed

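The authors deposited 1 table with FPKM per gene for the 6 samples, made with TopHat2 2.0.9 and Cufflinks 2.1.1 per the submitters' processing notes. Genome build, annotation and filters: not given in the sources used here. In addition the table holds a deposited count signal per sample, scaled by the authors: 97.1 to 98.8% of its values above 0 were whole multiples, within 0.02, of 1 value per sample. These are not raw counts, so tests for counts were not applied. Columns named for the group that the treatment protocol gives to RAS-fed mice were taken as RAS, and the other numbered set of 3 as control. The table's 4 group-level columns stayed out.

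Genes with a mean of at least 1 FPKM were tested with limma 3.58.1 (lmFit, then eBayes with a trend, in R 4.3.3) on log2(FPKM + 1), two-sided; p-values were adjusted by Benjamini-Hochberg, threshold 0.05; the step was tested on simulated data. Members, lists and tests were chosen with earlier results of these data known. All members are named. Values in every library are given for Heatr1, Pwp2, Myc, polymerase I and snoRNP proteins, Npm1 and Ncl. In the other steps they are given for the most abundant member, the 3 most negative and the 2 most positive. Further members with such values were added after their values were seen. So were Nol11, Utp4, Utp6, Tbl3, Rcl1, Mki67, Pcna, Ucp1, Cidea, Elovl3 and the fat cell and muscle markers named. Of each list of other assembly genes up to 4 were named, by smallest p. Of 201 list entries 200 were found, older symbols by NCBI gene number. Loci are as the table gives them; all 44 overlapped the RefSeq GRCm38.p6 gene of the same number. No strand-specific step is named in the labels. Alternatives were another pseudocount (0.1), no minimum or 5 FPKM, quantile normalization, median-ratio size factors, the scaled counts, the replicate number as a block and libraries left out. Tables and figures: matplotlib 3.10.9, pandas 2.3.3 and numpy 2.4.6 under Python 3.11.15.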

Additional observations from a re-analysis of the deposited data

How the results depend on the processing

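No member and none of the other assembly genes passed the adjusted threshold in limma in any of the 15 alternatives run. Over all genes, 0 to 2 passed when 1 library was left out (2 without control 1, 1 without RAS 1 and 1 without RAS 2) and 3 without control 1 and RAS 3 together, where 1740 had an unadjusted p under 0.05 against 1294 with all libraries; the other alternatives gave 0. The smallest adjusted p among the members was 0.232 and ran from 0.141 to 0.454. Members whose groups were apart with RAS lower numbered 25 to 29 with 1 library other than RAS 3 left out (16.8 to 19.3% of all genes), 33 without RAS 3, where fewer libraries make separation easier (19.4% of all genes), 34 without control 1 and RAS 3 (26.1% of all genes), 18 of 34 with a minimum of 5 FPKM (12.8%), and 17 of the 29 that share no locus, the last and the removal of the length trend being chosen after seeing the data. Their median lay between -0.33 (pseudocount of 0.1; also the 29) and -0.23 (length trend removed). Lower calls at an unadjusted p under 0.05 were 808 of 1294, and 623 of 1307 with median-ratio size factors. Of 650 member values under the alternatives, 31 moved by more than 1 SD. Npm1 had a lower mean under quantile normalization, without RAS 3 and without control 1 and RAS 3, and Polr1c without control 2, without RAS 3, without control 1 and RAS 3 and with the length trend removed. Other members turned higher. Nhp2, Nop10, Utp14a and Noc4l did so without RAS 2, and Polr1b, Nhp2 and Rrs1 without control 1. So did Rrs1 without RAS 1, Polr1b and Dkc1 without control 1 and RAS 3, and Noc4l under quantile normalization.

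With the replicate number as a block 0 genes passed, 1663 had an unadjusted p under 0.05, and so did 23 members against 24 without the block; the smallest adjusted p of a member was 0.262 against 0.232. The block cannot change the ranges or the mean differences (25 apart, median -0.30). Deviations of same-numbered samples correlated at 0.178, 0.096 and 0.219, and each sample correlated best with its own number; since 1 pair lay under 0.1 and the labels give no shared origin, the numbers were not taken as pairs. The edgeR test on reads was not run, since not all columns passed as whole reads. The lowest count of a member in a library was 75.3 scaled counts (Gar1); how far depth limited the calls was not tested.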

Other observations

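Lists around Myc and p53 were read beside the ribosome factors and are given as values. Of 8 tested genes of the Myc network, 3 had lower and 5 higher means with RAS (median 0.01). Mycl, a paralog of Myc listed as Mycl1, was at 1.29, 3.30 and 2.73 FPKM in controls 1, 2 and 3 and at 4.25, 5.45 and 10.0 in RAS 1, 2 and 3, log2 1.12 ± 0.33 (SE), on the opposite side from Myc with the groups apart. Max, the partner of Myc, was at 23.7, 25.9 and 26.9 in control and 24.9, 22.1 and 30.4 with RAS, log2 0.01, and Mxi1, an antagonist, stood at 0.27, Mlx at -0.26 and Mlxip at -0.19. Mycn and Mxd3 had means under 1 FPKM over the 6 libraries and were not tested. Max was named after its value was seen.

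Targets of p53 respond when ribosome assembly fails in other settings, and p53 protein was not measured here. Of 10 genes, Trp53 and targets of p53, 8 had lower and 2 higher means (median -0.17), beside 57% lower over all genes tested. Trp53, which encodes p53, was at 18.4, 17.4 and 16.5 in control and 14.4, 13.6 and 13.5 with RAS, log2 -0.31 ± 0.10 (SE). Cdkn1a, the cell cycle inhibitor, was at 53.8, 41.5 and 44.1 in control and 30.3, 13.6 and 38.8 with RAS, log2 -0.84 ± 0.35 (SE), with RAS 2 lowest. Zmat3 stood at -0.25 and Bax at -0.28. Groups were apart with RAS lower for Trp53, Cdkn1a and Zmat3, 3 of 10 beside 12.5% of all genes tested. None of the genes in these lists passed limma's adjusted threshold; 1 of the Myc network, on the higher side, and 2 of the p53 list, on the lower, had an unadjusted p under 0.05, beside 3.86% and 6.41% of all genes.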
